A study of Arabidopsis thaliana with 24 samples.

Results

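The 28 genes described here had higher signals in cold than in control rosettes of Arabidopsis thaliana at both harvests of a chilling series, 78 h and 6 h after the move. They were chosen by their measured values. For each array letter, the mean signal at 10 and 8 °C minus the signal at 20 °C had to be at least 0.8 on the log2 scale at 78 h and at 6 h, in A and in B. Of 13513 probe sets listed for a single gene, 37 met this. The rule then removed 9 of the 37 by name, among them LTI30, UGT78D2 and SWEET13, which left 28 genes, each on 1 probe set.

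The study exposed Col-0 plants to 6 temperatures and measured messenger RNA of whole rosettes on 24 one-colour arrays. Plants grew on soil for 4 weeks at 20 °C with 12 h of light a day at 130 µmol, and changed temperature after 4 h of light. They went to 20 °C, as the controls, or to 17, 14, 12, 10 or 8 °C, and all groups share accession, soil and light. Rosettes were frozen 10 h into the light, 78 h or 6 h after the move. Each sample pooled 3 rosettes, and each combination of temperature and harvest has 1 A and 1 B array. The labels mention more replicate samples, usually 5 or more, and do not say how the arrays relate to them or whether A and B came from separate sets of plants, so p-values measure the spread between these samples, which may be technical. In whole rosettes, more cells of a type and more RNA per cell cannot be told apart.

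Cold exposure of Arabidopsis rosettes is known to change sugar storage in the vacuole, to bring about anthocyanin in leaf tissue exposed to light, and to alter how chloroplasts and mitochondria dispose of excess reducing power. Transcripts of the first hours after a temperature shift are often a passing response, while those still high days later can belong to the acclimated plant. The genes here were chosen to be high at both times, and whether they take part in either phase was not tested.

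The annotation gave a gene symbol for 7 of the 28 genes and only a locus code for 21, whose roles are not described here. The 7 are BETA-VPE, a vacuolar processing enzyme that matures proteins by cleaving them in the vacuole; TMT2, a carrier that moves monosaccharides across the tonoplast; HYH, a bZIP transcription factor of light signalling and the homolog of HY5; AT5MAT, which attaches malonate to anthocyanins; NDB2, an NAD(P)H dehydrogenase of the outer face of the inner mitochondrial membrane; SAT32, named for salt tolerance; and LCR69, a small cysteine-rich protein of the plant defensin family.

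On the arrays that chose them, the genes varied in the size of the cold change and in which harvest held the larger one. The difference between 10 and 8 °C and 20 °C was 0.93 to 2.61 at 78 h (median 1.12) and 0.91 to 2.37 at 6 h (median 1.28), as a log2 difference. The largest value at 78 h was that of AT1G80130, 2.61, or 6.11-fold. At 6 h it was that of AT5G35970, 2.37, or 5.19-fold. These differences are a description without a test, because they are what the genes were selected on.

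**Figure D1:**
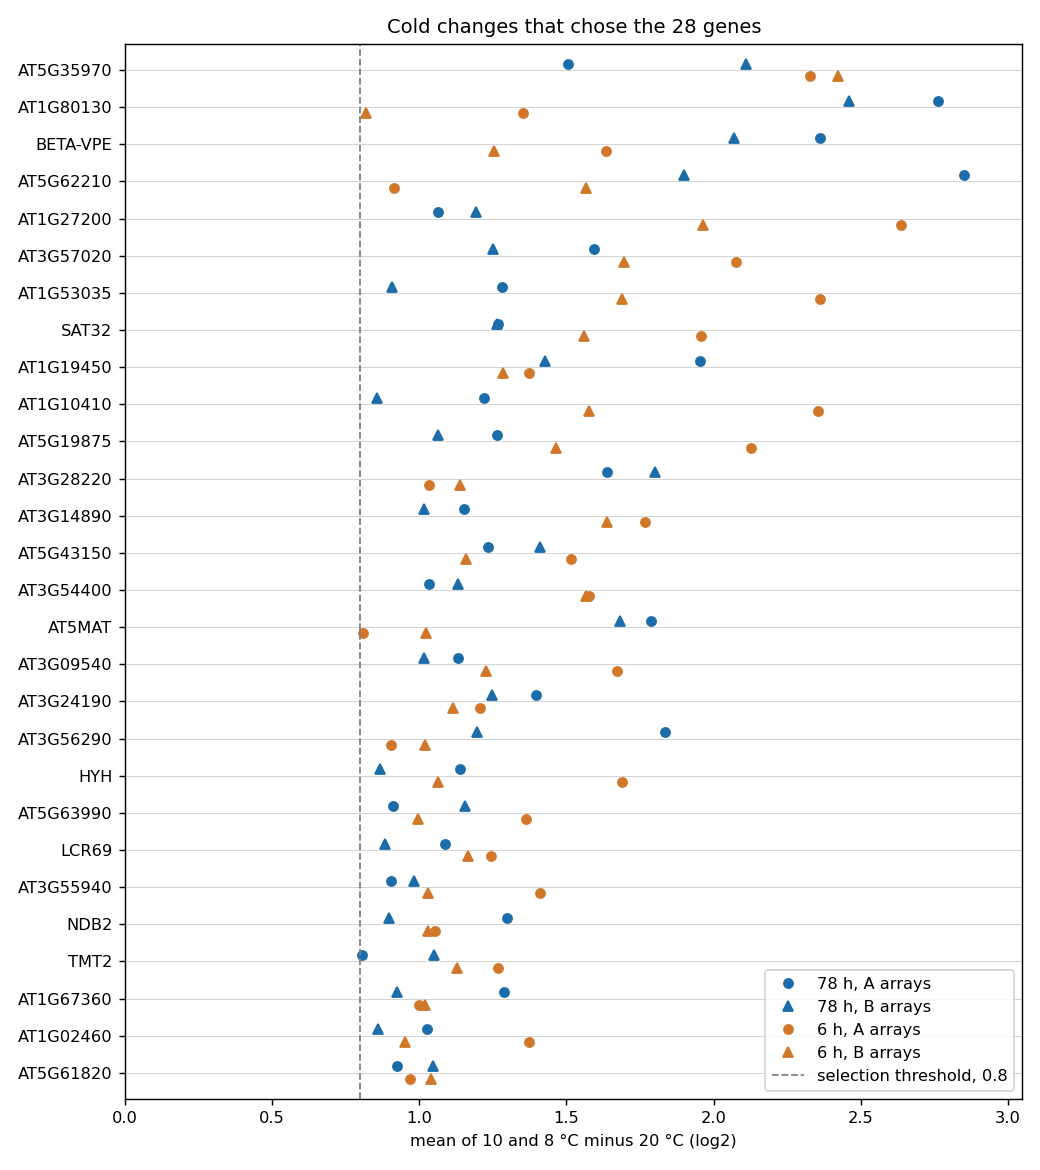
Each row is 1 of the 28 genes and each point the mean signal at 10 and 8 °C minus that at 20 °C (log2, x axis) in 1 letter, at 78 h (blue) or 6 h (orange), with circles for A and triangles for B. All points lie at or right of the dashed selection threshold of 0.8, and AT1G80130, AT5G62210 and BETA-VPE have their 78 h points right of their 6 h points.

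The genes nearest the threshold show how it was applied. Inside it, the lowest of the 4 values was 0.80 for TMT2, 0.81 for AT5MAT and 0.82 for AT1G80130. Just outside, it was 0.795 for AT1G67850, 0.777 for AT5G54130 and 0.768 for AT3G01060. A threshold of 0.7 would have kept 40 genes and one of 1.0 would have kept 13.

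The genes of the vacuole come first. At 78 h, BETA-VPE read 6.88, 7.05, 7.55, 8.37, 9.09 and 9.39 on the A arrays in the order of 20, 17, 14, 12, 10, then 8 °C, and 6.66, 6.95, 7.19, 7.82, 8.55 and 8.91 on the B arrays. At 6 h it read 6.62, 6.70, 7.26, 7.58, 8.31 and 8.20 on the A arrays and 6.61, 6.73, 6.81, 7.09, 8.08 and 7.64 on the B arrays. Its signal was higher at each cooler step at 78 h in both letters, while at 6 h both letters were highest at 10 °C. The cold change was 2.22 at 78 h and 1.44 at 6 h. TMT2 read 9.48, 9.71, 9.70, 10.00, 10.18 and 10.38 on the A arrays of 78 h, in the same order of temperatures, and 9.12, 9.17, 9.55, 9.81, 10.10 and 10.24 on the B arrays. At 6 h, TMT2 read 9.17, 9.38, 9.43, 9.94, 10.50 and 10.37 in A and 9.27, 9.36, 9.76, 9.95, 10.44 and 10.35 in B. All TMT2 values at 10 and 8 °C lay above all those at 20 and 17 °C, at both harvests, which the rule favours for 20 °C. Its change was 0.93 at 78 h and 1.20 at 6 h.

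The gene for light signalling had its larger cold change at 6 h, and the gene for anthocyanin modification at 78 h. HYH read 4.81, 5.01, 5.24, 5.47, 5.98 and 5.92 in A at 78 h, from 20 to 8 °C, and 4.91, 5.24, 5.31, 5.47, 5.74 and 5.81 in B. At 6 h it read 5.16, 5.06, 6.53, 6.96, 6.86 and 6.83 in A and 5.31, 5.67, 5.53, 6.64, 6.81 and 5.93 in B. Both letters read 6.64 or more at 12 and at 10 °C of 6 h and in no other group, since at 8 °C of 6 h the letters differed widely. The HYH probe set was dim, at percentile 29.7 of all probe sets by mean signal, and no detection calls were used here. Its cold change was 1.14 in A and 0.87 in B at 78 h, and 1.69 in A and 1.06 in B at 6 h. AT5MAT read 6.99, 7.82, 7.74, 8.64, 8.80 and 8.75 in A at 78 h and 6.97, 7.32, 8.06, 8.39, 8.78 and 8.53 in B. At 6 h AT5MAT read 7.12, 7.95, 8.17, 7.89, 8.00 and 7.86 in A and 6.82, 7.42, 7.51, 7.93, 7.80 and 7.89 in B. After 6 h AT5MAT was already near its cold level at 14 °C, whereas after 78 h the 12, 10 and 8 °C arrays stood above the other arrays of that harvest. Its cold change was 1.74 at 78 h and 0.91 at 6 h.

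NDB2, SAT32 and LCR69 had cold changes of similar size at both harvests or larger ones at 6 h. NDB2 read 7.92, 8.40, 8.75, 8.85, 9.08 and 9.35 in A at 78 h and 7.83, 8.33, 8.32, 8.55, 8.78 and 8.67 in B. At 6 h NDB2 read 8.23, 9.04, 9.19, 9.03, 9.22 and 9.34 in A and 7.26, 7.52, 7.97, 7.89, 8.32 and 8.26 in B. The letters of NDB2 stood far apart at 6 h, B being lower at every temperature, and its cold change was 1.098 at 78 h and 1.042 at 6 h. SAT32 read 8.89, 9.25, 9.31, 9.82, 10.14 and 10.17 in A at 78 h and 8.64, 9.15, 9.46, 9.41, 9.81 and 9.99 in B. At 6 h SAT32 read 8.86, 9.37, 10.00, 10.28, 10.84 and 10.78 in A and 8.87, 9.36, 9.58, 10.02, 10.55 and 10.30 in B. From 14 °C down, every 78 h value of SAT32 lay below the 6 h value of the same letter and temperature, and its cold change was 1.27 at 78 h and 1.76 at 6 h. LCR69 read 12.12, 12.37, 12.59, 13.18, 13.19 and 13.22 in A at 78 h and 12.52, 12.93, 13.25, 13.30, 13.42 and 13.38 in B. At 6 h LCR69 read 12.23, 12.41, 12.80, 12.98, 13.45 and 13.50 in A and 12.58, 12.92, 13.26, 13.48, 13.76 and 13.74 in B. It was higher on the B than on the A array in all 12 groups, with a cold change of 0.99 at 78 h and 1.21 at 6 h.

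Among the genes known only by locus code, AT1G80130 and AT5G62210 had the largest excess of the 78 h change over the 6 h change, 1.53 and 1.14. For AT1G80130 it was 1.41 in A and 1.64 in B, while for AT5G62210 it was 1.94 in A and only 0.33 in B. Arrays outside the rule give the 12 minus 17 °C difference at 78 h minus that at 6 h. For AT1G80130 this was 0.73 in A and 0.50 in B, and for AT5G62210 0.70 in A and -0.53 in B. AT1G80130 read 8.32, 8.61, 9.25, 9.68, 10.79 and 11.37 in A at 78 h from 20 to 8 °C, and 8.22, 8.75, 8.76, 9.51, 10.35 and 11.01 in B. At 6 h AT1G80130 read 8.03, 8.51, 8.94, 8.85, 9.41 and 9.36 in A and 7.98, 8.06, 8.09, 8.31, 8.94 and 8.66 in B. Both letters were higher at each cooler step at 78 h, and its signal after 78 h at 10 or 8 °C lay above that of any 6 h array. AT5G62210 read 6.65, 6.91, 7.51, 8.69, 9.39 and 9.62 in A at 78 h and 7.56, 7.96, 8.15, 8.74, 9.35 and 9.57 in B. At 6 h AT5G62210 read 7.09, 7.80, 8.79, 8.88, 7.99 and 8.02 in A and 7.88, 8.79, 8.67, 10.10, 9.54 and 9.35 in B. After 6 h this gene was highest at 12 °C in both letters, with lower values at 10 and 8 °C.

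AT1G27200 and AT1G53035 stood at the other end, with 78 h changes smaller than their 6 h changes by 1.17 and 0.93. AT1G27200 read 8.29, 8.46, 8.56, 8.78, 9.23 and 9.49 in A at 78 h and 6.99, 7.17, 7.56, 7.32, 8.01 and 8.36 in B. At 6 h AT1G27200 read 7.61, 8.27, 8.66, 9.40, 10.28 and 10.21 in A and 6.86, 7.10, 7.54, 8.03, 8.91 and 8.74 in B. Its B arrays were lower in every group, by 1.22 on average, the widest gap among the 28 genes. The cold change in both letters was a condition of the rule. AT1G53035 read 8.87, 9.33, 9.42, 9.60, 10.06 and 10.24 in A at 78 h and 8.71, 8.78, 8.88, 8.97, 9.46 and 9.78 in B. At 6 h AT1G53035 read 8.73, 8.98, 9.38, 10.03, 11.00 and 11.20 in A and 8.55, 8.57, 8.86, 9.17, 10.32 and 10.15 in B. Its largest step at 6 h, in both letters, was that between 12 and 10 °C.

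AT5G35970 and AT3G57020 had large changes at both harvests. AT5G35970 read 9.31, 9.81, 10.03, 10.32, 10.75 and 10.89 in A at 78 h and 8.27, 9.13, 9.69, 10.08, 10.35 and 10.41 in B. At 6 h AT5G35970 read 8.55, 9.44, 9.99, 10.43, 10.86 and 10.89 in A and 8.44, 9.19, 9.85, 10.46, 10.93 and 10.80 in B. The 20 °C arrays of 78 h differed widely between letters, and its change at that harvest was 1.51 in A and 2.11 in B, against 2.33 in A and 2.42 in B at 6 h. AT3G57020 read 7.75, 7.93, 8.28, 8.76, 9.24 and 9.46 in A at 78 h and 7.42, 7.70, 7.93, 8.19, 8.64 and 8.72 in B. At 6 h AT3G57020 read 7.70, 8.25, 9.13, 9.28, 9.79 and 9.75 in A and 7.46, 7.69, 8.06, 8.80, 9.29 and 9.03 in B. The mean change of AT3G57020 was 1.42 at 78 h and 1.89 at 6 h.

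The other 15 locus-code genes had cold changes of 0.94 to 1.72 at 78 h and 0.96 to 1.97 at 6 h. Among them AT3G28220 and AT1G19450 had the largest 78 h changes, 1.72 and 1.69, and AT1G10410 and AT5G19875 the largest 6 h changes, 1.97 and 1.80. AT3G28220 had the widest gap between letters of these, -0.77 as B minus A, with 20 °C signals of 9.42 in A and 9.74 in B at 78 h and of 10.75 in A and 9.06 in B at 6 h. AT3G24190 read 9.68 in A and 9.60 in B at 20 °C of 78 h, and 11.15 in A and 10.81 in B at 8 °C. AT3G56290 read 8.28 in A and 8.09 in B at 20 °C of 78 h, and 10.31 in A and 9.37 in B at 8 °C. At 6 h AT3G56290 read 9.54 in A already at 14 °C, where B read 8.36.

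**Figure D2:**
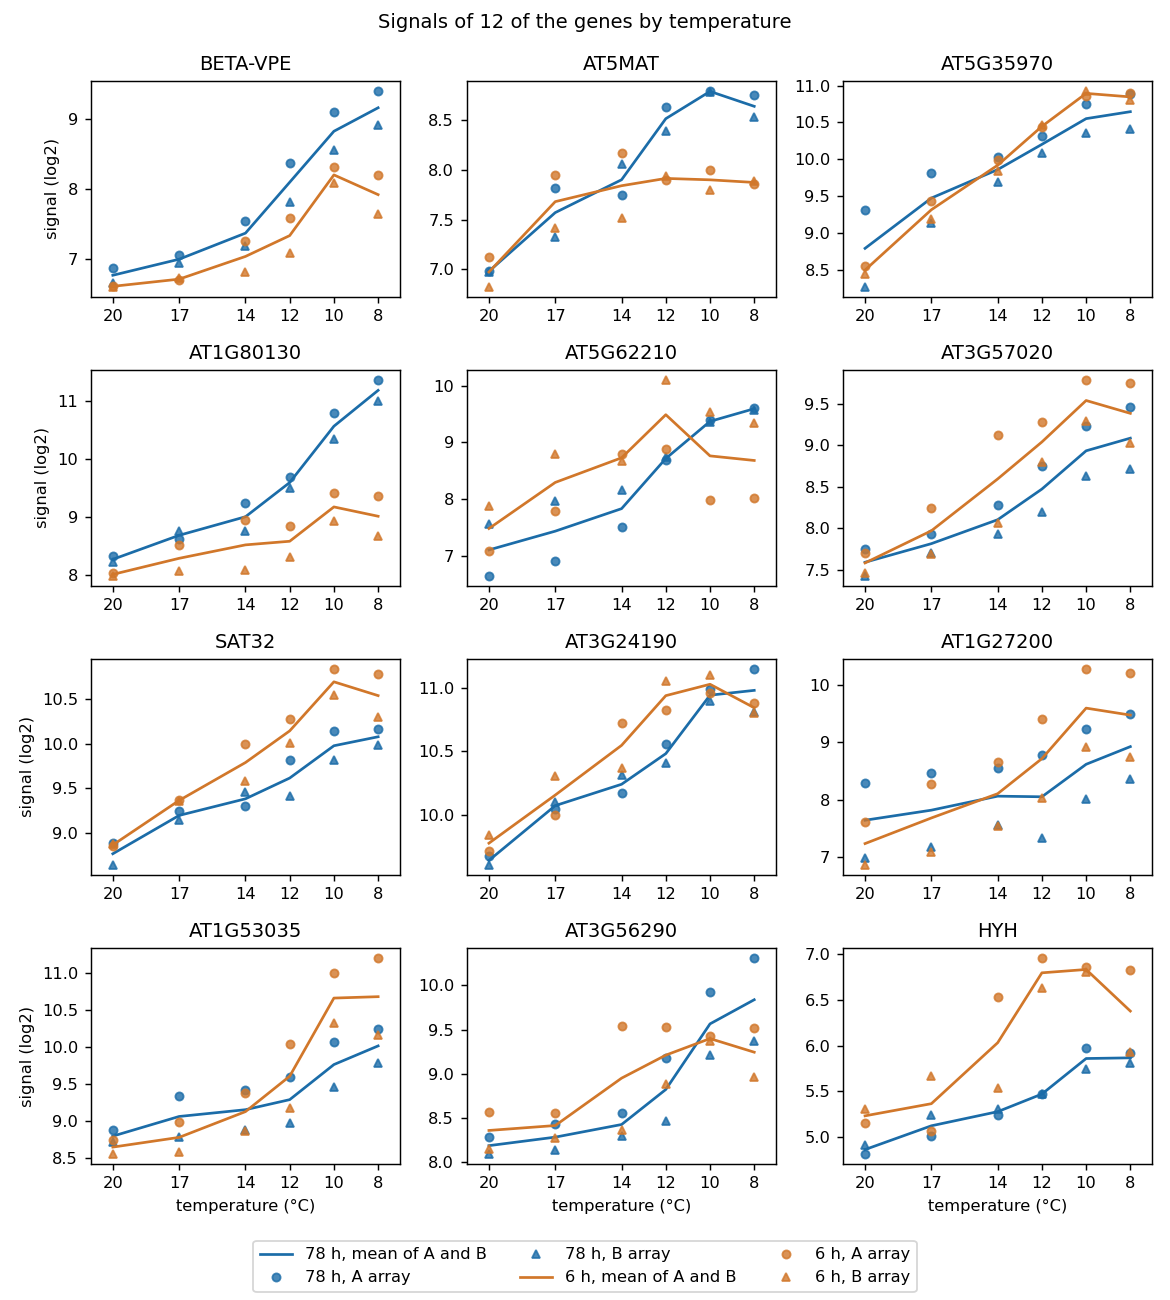
Signals of 12 of the genes (log2, y axis) against temperature from 20 to 8 °C (x axis), with 78 h in blue and 6 h in orange, circles for the A array, triangles for the B array and a line through their mean. BETA-VPE and AT1G80130 end highest at 78 h, SAT32, AT1G53035 and HYH at 6 h, and the y axes differ between genes.

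As a description without a test, the order of the temperatures was as follows. After 78 h the mean signal was higher at every step down in temperature for 23 of the 28 genes, and was highest at 8 °C for 26. After 6 h the mean was higher at every step for 6 genes and was highest at 8 °C for 8, at 10 °C for 18 and at 12 °C for 2. The lowest mean was that of 20 °C for all 28 at both harvests. The selection favours this, and it also favours a highest mean at 10 or 8 °C. These orders were not counted over all probe sets, so they are not shown to be particular to these genes.

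The last step, 8 °C against 10 °C, lies within the arrays that chose the genes but is not fixed by the rule, and is described without a test. At 78 h the signal at 8 °C was above that at 10 °C in both letters for 22 of 28 genes, against 20.8% of all probe sets, with a median difference of 0.15. AT1G80130 had the largest such difference, 0.62. At 6 h it was higher in both letters for 2 genes, AT3G28220 and AT3G55940, against 32.8% of all probe sets, and the median was -0.06. The letters differed at this step. At 6 h 17 of the 28 were higher at 8 °C in A, where 58.7% of all probe sets were, and 24 of the 28 were lower in B, where 43.4% were.

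A part of the change was already present at milder temperatures. Relative to 20 °C, the genes had reached a median of 31.8% of their 10 and 8 °C change at 17 °C, 44.3% at 14 °C and 64.7% at 12 °C after 78 h. After 6 h the medians were 25.7%, 49.9% and 68.3%. No gene was below 0 at any of these temperatures. At 12 °C the shares ran between 36.2% for AT1G27200 and 93.8% for LCR69 at 78 h, and between 45.2% for AT1G10410 and 161.8% for AT5G62210 at 6 h. At 6 h and 12 °C, AT5G62210, HYH with 113.9%, AT5MAT with 103% and AT3G24190 with 100.2% had reached or passed the level of 10 and 8 °C. The controls and the cold change in these shares come from the arrays that chose the genes, so the shares have no test.

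**Figure D3:**
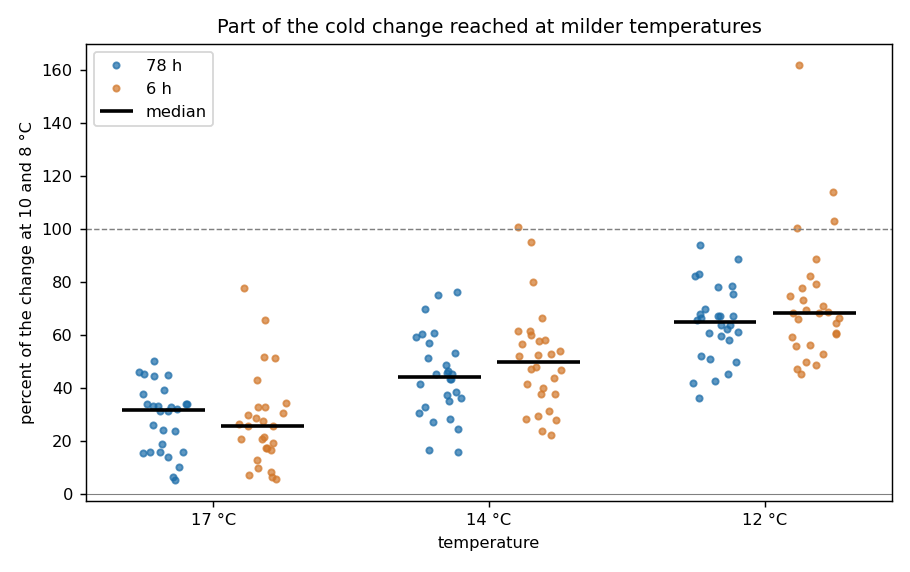
Each point is 1 of the 28 genes, placed by its signal at 17, 14 or 12 °C minus 20 °C, as a percent of its change at 10 and 8 °C (y axis), with 78 h in blue left of 6 h in orange and the median as a black bar. The median goes up with each cooler temperature, and the dashed line at 100% is passed by 4 genes at 12 °C of 6 h.

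A comparison that the selection did not use is 12 °C against 17 °C. It was tested in limma on the 12 arrays at 17, 14 and 12 °C, over all 22746 probe sets, with Benjamini-Hochberg adjustment and calls at an adjusted p below 0.05. At 78 h all 28 genes were estimated higher at 12 °C, by 0.07 to 1.28 (median 0.42), where the median of all probe sets was -0.02. All 28 were higher in both letters, against 22.9% of all probe sets, and in 23 both 12 °C arrays lay above both 17 °C arrays, against 9.67%. At 6 h all 28 were again estimated higher, by 0.09 to 1.43 (median 0.64), with 25 higher in both letters against 28.5% of all probe sets, and 20 without overlap of the groups against 10.8%. In each harvest 26 of the 28 lay above the 95th percentile of all probe sets, which was 0.20 at 78 h and 0.23 at 6 h.

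Without a block no gene passed the test across all probe sets. In limma none of the 28 was called at 78 h or at 6 h, and neither was any probe set (0%). An unadjusted p below 0.05 was found for 14 of the 28 at 78 h, against 2.64% of all probe sets, and for 17 at 6 h, against 3.98%. With the letter as a block, 6 of the 28 rose at 6 h, where 0.308% of all probe sets rose, and none did at 78 h, where 0.0044% rose. The block is given here because the letters pair the arrays. The 6 genes are AT5G35970, AT1G27200, AT3G57020, AT1G53035, AT3G54400 and AT3G09540, of which the last 2 were named after their values were seen.

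AT5G35970 averaged 10.45 ± 0.02 at 12 °C and 9.31 ± 0.17 at 17 °C of 6 h (SD, n = 2 each), a difference of 1.13 ± 0.14 (SE, limma with the letter as block, adjusted p = 0.0203). AT3G57020 averaged 9.04 ± 0.34 at 12 °C and 7.97 ± 0.39 at 17 °C (SD, n = 2 each), a difference of 1.07 ± 0.16 (SE, limma with block, adjusted p = 0.0393). For AT1G27200 the difference was 1.03 ± 0.11 with the block (limma, adjusted p = 0.0174), and 1.03 ± 0.76 without it. AT1G53035 was higher at 12 °C by 0.83 (limma with block, adjusted p = 0.0203). AT3G54400 read 11.17 and 11.32 at 12 °C of 6 h, against 10.46 and 10.65 at 17 °C, in A and B, a difference of 0.68 (limma with block, adjusted p = 0.0276). AT3G09540 read 9.87 and 9.66 at 12 °C, against 9.14 and 9.06 at 17 °C, a difference of 0.66 (limma with block, adjusted p = 0.0281). In each of these genes but AT1G27200, both 12 °C arrays lay above both 17 °C arrays.

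This blocked count of 6 depended on single arrays. With the A array of 6 h at 12 °C left out it was 0, and with the B array left out it was 1. With either 17 °C array of 6 h left out it was 0. It was 10 without either 14 °C array of 6 h. The largest difference at 6 h was that of HYH, 1.43 ± 0.30 with the block, which did not pass (limma, adjusted p = 0.0953). At 78 h the largest were those of AT5G62210, 1.28, and BETA-VPE, 1.09 ± 0.14 with the block (limma, adjusted p = 0.0856).

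**Figure D4:**
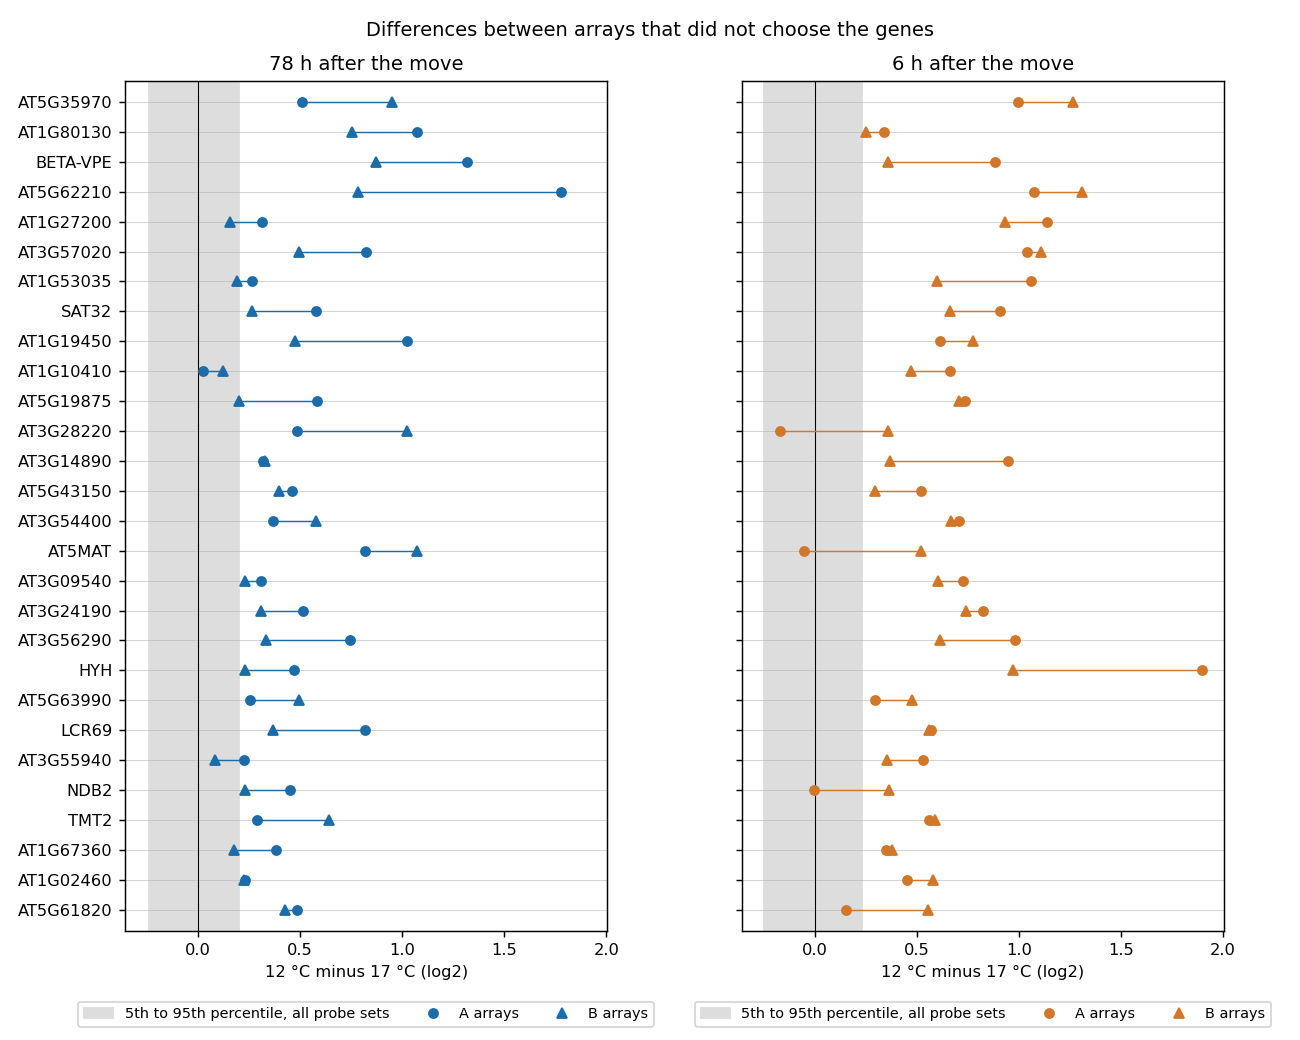
Difference between 12 and 17 °C (log2, x axis) for each of the 28 genes, at 78 h (left) and 6 h (right), with circles for the A arrays, triangles for the B arrays and the 5th to 95th percentile of all probe sets shaded. All genes lie right of 0 in both letters at 78 h, and AT3G28220, AT5MAT and NDB2 have an A value at or below 0 at 6 h.

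At 14 °C against 17 °C the differences were smaller. At 78 h 27 of the 28 were estimated higher at 14 °C (median 0.19), 21 in both letters against 17.9% of all probe sets. At 6 h 27 were estimated higher (median 0.31), 25 in both letters against 32.2% of all probe sets. No gene and no probe set was called with or without the block (limma, 0%), and an unadjusted p below 0.05 was found for 1 gene at 78 h, against 0.361% of all probe sets, and for 6 at 6 h, against 1.7%. AT1G10410 at 78 h, with -0.02, and AT3G28220 at 6 h, with -0.09, were the exceptions to the direction.

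Whether the harvests differed at one temperature was tested at 12 °C. Of the 28 genes, 9 were estimated higher at 78 h than at 6 h, and the median difference was -0.18. Without a block, limma called none, where 0.171% of all probe sets were called higher and 0.0835% lower at 78 h, and 9 of the 28 had an unadjusted p below 0.05, against 9.53% of all probe sets. With the letter as block, 2 genes were higher and 4 lower at 78 h, where 3.48% of all probe sets were called higher and 3.46% lower. The count of 2 of 28 higher, 7.14%, and that of 4 of 28 lower, 14.3%, are to be read against those shares.

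The 2 higher genes were AT1G80130 and BETA-VPE. AT1G80130 averaged 9.59 ± 0.12 at 78 h and 8.58 ± 0.38 at 6 h (SD, n = 2 each), a difference of 1.02 ± 0.19 (SE, limma with block, adjusted p = 0.0192). BETA-VPE averaged 8.09 ± 0.39 at 78 h and 7.33 ± 0.35 at 6 h (SD, n = 2 each), a difference of 0.76 ± 0.14 (SE, limma with block, adjusted p = 0.0173). In both genes the 78 h arrays lay above both 6 h arrays. The 4 lower genes were HYH, AT1G27200, AT3G09540 and AT1G10410. HYH averaged 5.47 ± 0.01 at 78 h and 6.80 ± 0.23 at 6 h (SD, n = 2 each), a difference of -1.33 ± 0.30 (SE, limma with block, adjusted p = 0.034). The differences were -0.67 for AT1G27200, -0.56 for AT3G09540 and -0.51 for AT1G10410 (limma with block, adjusted p = 0.0123, 0.013 and 0.0477). The 78 h arrays lay below both 6 h arrays in HYH, AT3G09540 and AT1G10410, while the groups of AT1G27200 overlapped and its SE without the block was 0.76.

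Single arrays mattered here too. The count of 6 became 0 when either 12 °C array of 6 h was left out. Leaving out a 12 °C array of 78 h gave 2 for A and 0 for B, and leaving out either 14 °C array of 6 h gave 9. The 20 °C arrays are the controls of the rule, so their difference between harvests is a description without a test. It ran between -0.38 and 0.41 over the 28 genes with a median of -0.01. There AT1G80130 was higher at 78 h by 0.26, BETA-VPE by 0.16, and HYH was at -0.37.

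The split of the genes by harvest can be set beside arrays that did not choose them. On the arrays of the rule, the cold change was larger at 78 h in both letters for 8 genes, larger at 6 h in both letters for 15, and of mixed order for 5. On the arrays at 12 and 17 °C, the difference at 78 h minus that at 6 h had the same sign as on the arrays of the rule in 22 of 28 genes. It was above 0 in 7 of the 10 whose mean cold change was larger at 78 h, and below 0 in 15 of the 18 whose mean was larger at 6 h. Among all probe sets it was above 0 in 45.7%. Across the 28 genes the correlation of both measures was 0.79, a description over genes that share arrays letter by letter, with no test. Neither this correlation nor the share with the same sign was computed over all probe sets. AT5MAT, with 0.71, AT3G28220, with 0.66, and AT1G80130, with 0.62, had the largest excess at 78 h, while HYH, with -1.09, and AT1G27200, with -0.80, had the largest at 6 h. Of these, AT3G28220 and AT1G27200 had an SE larger than their estimate without the block, 1.37 and 1.07. With the block the SE of AT3G28220 was still 1.06.

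The interaction itself passed for none of the 28 genes. Neither fit called any probe set (limma with and without the block, 0%), and 1 of the 28, HYH, had an unadjusted p below 0.05, of 0.039, against 1.74% of all probe sets. The difference between harvests was below 0 in both letters for 15 genes, against 30.1% of all probe sets, and above 0 in both letters for 4, against 25.2%.

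**Figure D5:**
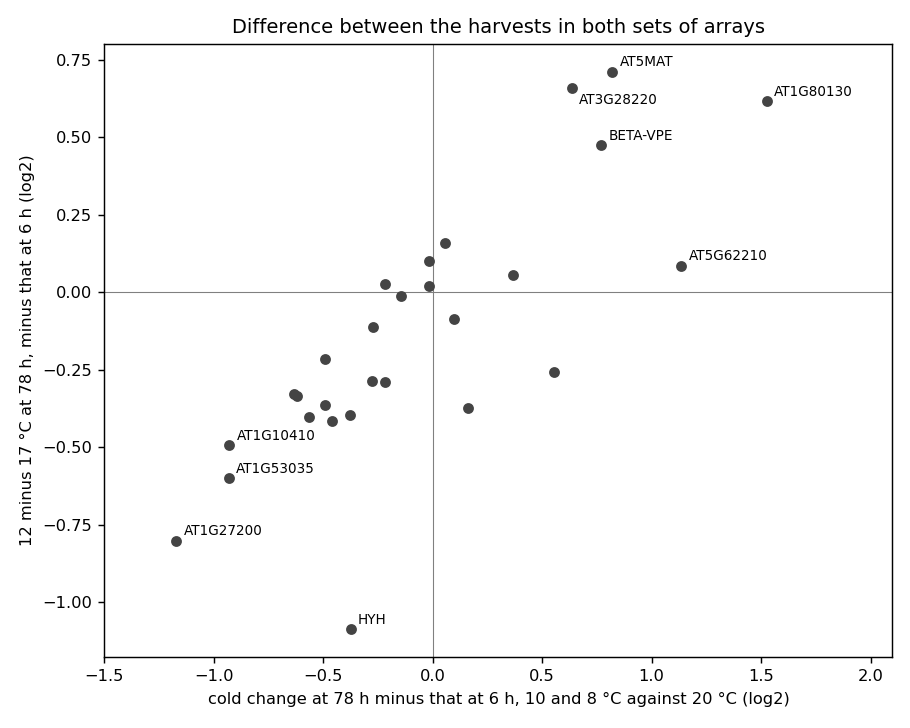
Each point is 1 of the 28 genes, with the cold change at 78 h minus that at 6 h on the arrays that chose the genes (log2, x axis) and the 12 minus 17 °C difference at 78 h minus that at 6 h on other arrays (log2, y axis). Points lie mostly in the lower left and upper right, with AT1G80130 and AT5MAT at the upper right and AT1G27200 and HYH at the lower left.

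When the spread was estimated over all 24 arrays, including those that chose the genes, more genes passed. The rule had required a high signal in both letters on the added cold arrays, so the spread of these genes there is not independent of how they were chosen, and the counts are given as a description. For 12 °C against 17 °C without a block, none was called at 78 h (0.00879% of all probe sets rose) and 1, AT3G54400, at 6 h (0.0308%). With the block 6 were called at 78 h (0.145%) and 12 at 6 h (0.567%). For 78 h against 6 h at 12 °C, 2 genes, AT3G14890 and HYH, were lower without a block (0.51%), and with it 3 were higher (4.7%) and 8 lower (4.41%).

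Other genes known from cold responses were read on the same arrays. Here and for the tissue markers below, a listed gene counts as measured only if the annotation named it alone on a probe set. No gene was named for 8730 of the 22746 probe sets and several for 503, so the remaining list genes may still be on the array. Of a list of 25 genes of the cold regulon, 5 were measured, all outside the 28. Of these, LTI30 met the threshold and was outside only because the rule removed it by name. The median difference of the 5 between 12 and 17 °C was 0.32 at 78 h and 1.24 at 6 h. With the block, the dehydrins LTI30, by 1.85, and COR47, by 1.28, rose at 6 h (limma, adjusted p = 0.0174 and 0.0208), and none passed at 78 h. ZAT10, a zinc finger repressor, differed by 1.24 at 6 h without passing. Of 23 flavonoid genes 7 were measured, with medians of 0.99 at 78 h and 0.21 at 6 h. None of them passed in either fit. In the flavonoid list the anthocyanin enzymes DFR, with 1.17, UGT75C1, with 1.102, and UF3GT, with 1.07, had the largest estimates at 78 h, above the 0.95 of AT5MAT.

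Of 26 genes of sugar transport and synthesis 9 were measured, with medians of 0.14 at 78 h and 0.06 at 6 h and no gene past the test in either fit. TMT2 differed by 0.46 at 78 h and 0.57 at 6 h. The list was written from general knowledge and also holds AT1G19450, to which the annotation gives no role and which differed by 0.75 at 78 h and 0.69 at 6 h (limma with block, adjusted p = 0.168 and 0.0504). Of 15 antioxidant genes 4 were measured and none passed. Of 14 clock genes 2 were measured, of which GI, a component of the clock, rose at 6 h with the block, by 0.63 (limma, adjusted p = 0.0447). The 1 measured of 17 genes of abscisic acid and late embryogenesis proteins, LEA4-5, did not pass. Without the block none of these lists had a gene past the test. None of these lists was tested as a set. Lists of proline, lipid and cold RNA-binding genes, and flower and seed markers, had no named probe set and were not analysed here.

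Markers of rosette leaf and root were read to check the tissue. Of 10 leaf markers 2 were measured, RCA with signals of 13.40 to 14.26 and PSAN with 13.22 to 13.80, both high on every array. Of 5 root markers 3 were measured. The root hair expansins EXPA7, 5.77 to 6.23, and EXPA18, 5.38 to 5.82, stayed within narrow ranges, at percentiles 33.2 and 26.2 of signal. The beta-glucosidase PYK10 ranged between 7.09 and 10.00, at percentile 79.4, so this root marker was not low in these samples. PYK10 was lower at 12 than at 17 °C of 78 h by 0.82 without passing (limma, adjusted p = 0.124 with the block). Its part in the results above was not tested.

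Array letter and chromosome were also read. The letter means include the arrays of the rule. The B array read lower than the A array on average for 22 of them, and higher for the other 6, against 40.4% of all probe sets lower in B, with differences between -1.22 for AT1G27200 and 0.70 for AT5G62210 (B minus A, median -0.24). In 8 genes B was lower in all 12 groups, a count that was not made over all probe sets. The part of the letter in the results was not tested beyond the block and the values per letter given above. By locus code, 10 of the genes lie on chromosome 3, or 35.7% against 20.5% of single-gene probe sets, 9 on chromosome 1 (32.1% against 25.9%), 6 on chromosome 5 (21.4% against 22.5%), 2 on chromosome 4 (7.14% against 14.6%) and 1 on chromosome 2 (3.57% against 16.5%). No 2 of them were next to each other in the TAIR10.1 gene order. The closest, AT3G55940 and AT3G56290, were 39 genes apart.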

How the data were processed

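Messenger RNA of Arabidopsis rosettes was measured on 24 arrays. Per the labels' protocols, biotinylated cRNA was prepared from roughly 10 µg of Trizol-extracted RNA. The values the authors deposited are on the log2 scale, a base inferred from their range of 3.87 to 14.81, and had been normalized between arrays by a method not given in the sources used here. Array medians lay between 7.15 and 7.25. That normalization was kept. Signal over background is unknown, and precision is limited by how few arrays there are.

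Of 22810 probe sets, 64 controls were left out and 22746 tested. The probe annotation listed 1 gene for 13513 of them, several for 503 and none for 8730. Models with 1 mean per temperature and harvest were fitted in limma 3.58.1 (R 4.3.3) to the 12 arrays at 17, 14 and 12 °C, with 6 residual degrees of freedom, or 5 with the letter as a block. Both were also run on simulated arrays with known changes, and the outcome is not reported here. Benjamini-Hochberg adjustment ran over all 22746 probe sets.

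Differences between A and B arrays correlated across probe sets between 0.52 and 0.89 over all 66 pairs of groups (median 0.669), so the letters pair the arrays. The pairing comes from the letters in the titles and this check.

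The genes and the lists were chosen with earlier results of these data known. Values of every array are given for genes with the largest mean cold change or the most different harvests, and also for genes with a symbol, which were added after their values were seen, as were AT3G24190 and AT3G56290 in part. Tested alternatives were the block, all 24 arrays, 2 other normalizations, a filter on dim probe sets, moderation with trend, other thresholds, another baseline and leaving out each array. Leaving out each array with the block was added after the data were seen.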

Additional observations from a re-analysis of the deposited data

How the results depend on the processing

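Without a block no gene of the 28 passed any of the 6 tests, and this held after cyclic loess, median centring, removal of the 25% dimmest probe sets, trended and robust moderation, and thresholds of 0.7 and 1.0. The mean of 17 and 14 °C as the baseline was tried for 12 °C at each harvest, and again no gene passed. Leaving out each array in turn left these counts at 0. The replicate block on the paired letters called 6 genes for 12 against 17 °C at 6 h and 6 for 78 h against 6 h at 12 °C. With the replicate block and each array left out, in which the lone array of a group is assumed to vary like the others, these counts ran between 0 and 10 and between 0 and 9. All 24 arrays called 1 and 2, and all 24 with the replicate block 12 and 11, and 6 for 12 against 17 °C at 78 h. The block changed no other call. With 2 arrays a group and no block, differences of several standard errors did not pass. That of AT3G54400 for 12 against 17 °C at 6 h was 0.68 ± 0.10 (SE, limma without the block, adjusted p = 0.188). With the block its SE was 0.09, and it passed (limma with block, adjusted p = 0.0276). The search for promoter motifs was not run, since it had no sequences to use.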
